A study of Schistosoma mansoni with 6 samples.

Results

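Germ cells of animals carry RNA-binding proteins that hold messenger RNAs silent, lengthen or shorten their poly(A) tails, or cut them with small RNAs. Of these, 6 genes of *Schistosoma mansoni* are described here: nanos-1 (Smp_055740), boule (Smp_144860), bruno (Smp_041350), a cytoplasmic polyadenylation element binding protein or CPEB (Smp_137460), a vasa-like DEAD-box RNA helicase (Smp_154320) and an Argonaute (Smp_102690). They are 6 of the 10831 genes in the deposited table. They were picked by name, mostly from the table's annotation. Smp_055740 carries the study's name nanos-1, and the table annotates it as nanos protein. The genes were also chosen by their head and tail means. The differences between heads and tails given for them are therefore a description and were not tested.

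Adult females were taken from mice 7 to 8 weeks p.i. and cut in front of the ovary and behind it, and RNA of the anterior pieces (heads) was sequenced beside that of the posterior pieces (tails). Each group had 3 libraries from separate extractions of about 100 pooled pieces. Tails consist largely of vitellaria, the organ whose S1 stem cells give rise to the yolk-providing vitellocytes, so the comparison asks which transcripts are enriched there. In such whole fragments, a larger number of cells of a type and more RNA in each cell cannot be told apart.

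In the female schistosome, stem cells of the ovary and S1 cells of the vitellaria both divide, and only the former give rise to oocytes. Nanos and its partner Pumilio repress the translation of messenger RNAs in germ line stem cells of many animals. Boule is a relative of the mammalian DAZ proteins and is needed for meiosis in male *Drosophila*, where Bruno silences oskar mRNA in the oocyte. CPEB governs the poly(A) tails of stored maternal mRNAs in *Xenopus* oocytes. Vasa is a helicase of germ granules in *Drosophila*, and Argonaute proteins bind small RNAs that guide them to target transcripts.

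The table gives a mean for each group and no value for a single library. A group mean is built from whole reads divided by the size factor of each library, the number that corrects for depth. The reads of single libraries could therefore be solved for less abundant genes. This succeeded for 4024 of 4027 genes with a head mean above 0 and under 300 and, in tails, for 6441 of 6441 with a mean above 0 and under 1000. Heads had size factors of 2.55, 2.35 and 2.08, tails of 0.72, 0.35 and 0.32, and each library is called by its size factor in what follows. The estimated depth on genes was 25.4 M to 31.1 M reads for heads and 5.25 M to 11.8 M reads for tails (M, the prefix mega), so that low levels are known more precisely in heads. With reads in proportion to depth, a mean of 0.43 in heads or 2.16 in tails corresponds to 3 reads over a group's libraries. Of the 6 genes, nanos-1, boule and bruno were solved in both groups and CPEB in heads. The vasa-like helicase and Argonaute are known only by the authors' group means, which carry no error.

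Head library 2.55 stood apart from the other head libraries in transcripts of the vitellaria. The study lists 26 genes as specific to that organ by hybridization and 1 of them is nanos-1. The genes probed were taken from those enriched in tails or in heads in these same libraries, some of them known before. Their direction is therefore no independent evidence. For nanos-1 the listing is not the whole of its pattern, since its hybridization signal was seen at the front of the ovary too. Within the vitellaria, the paper found it in nearly all cells with Histone H2B signal and calls it a likely marker of S1 cells. All 25 other listed genes had higher means in tails, and none was at 0 in either group. Together they had 7472 normalized counts in heads and 681059 in tails. Head reads were solved for 16 of them at a head mean of at least 10, and 15 were lowest in head library 2.55. Summed over these 16, the level was 591 normalized counts in head library 2.55, 1501 in head library 2.35 and 2371 in head library 2.08. A narrower set of 12 of these genes had served as markers at first, and the full list was added after the data were seen, because it is less uniform. The marker listed for the ovary alone, protocadherin 11 (Smp_159920), had a mean of 988.5 in heads and 43.3 in tails. Its direction too is no independent evidence, and its head level could not be resolved into single libraries. The 2 markers listed for vitellaria and ovary were higher in tails. Smp_151860 had means of 40.9 in heads and 1118 in tails, and Smp_166110 of 149 in heads and 835 in tails.

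Primers for nanos-1 are shown because it is the only 1 of the 6 genes for which the study lists a cloned hybridization probe. Its cDNA fragment was amplified with this pair, of 22 and 21 bases, each written 5′ to 3′ and each with 9 G or C bases.
nanos-1 forward: tgatatcgaaatcgtccagaca
nanos-1 reverse: ttgtatcggttccaacaaacc

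The nanos-1 transcript was scarce in heads and plentiful in tails. It had 567.3, 641 and 710 normalized counts in tail libraries 0.72, 0.35 and 0.32, from 408, 226 and 227 reads. In heads it had 5.10, 54.9 and 48.0 normalized counts in libraries 2.55, 2.35 and 2.08, from 13, 129 and 100 reads. All tail libraries lay above all head libraries, and head library 2.55 was by far the lowest. The mean in tails was 639.7 ± 71.6, against 36.0 ± 27.0 for heads (SD, n = 3 each). The log2 fold change, tail over head, was 4.15. Without head library 2.55 the log2 fold change was 3.64.

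The CPEB gene Smp_137460 showed a difference of similar size in the same direction. Its tail level is known as the authors' mean of 2418 normalized counts. In heads it had 7.45, 136 and 206 normalized counts in libraries 2.55, 2.35 and 2.08, from 19, 319 and 429 reads, a mean of 116 ± 101 (SD, n = 3). The 3 head libraries thus spanned more than an order of magnitude, and every one of them was far below the tail mean. Its log2 fold change was 4.38. This was 3.82 without head library 2.55, 4.50 without head library 2.35 and 5.08 without head library 2.08.

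boule had the opposite direction in its means, and the groups overlapped. In heads it had 2.35, 93.7 and 84.9 normalized counts in libraries 2.55, 2.35 and 2.08, from 6, 220 and 177 reads. In tails it had 6.95, 14.2 and 3.13 normalized counts in libraries 0.72, 0.35 and 0.32, from only 5, 5 and 1 reads. Head library 2.55 was thus lower than every tail library, while the other head libraries were higher than all of them. The means were 60.3 ± 50.4 in heads and 8.09 ± 5.61 in tails (SD, n = 3 each), a log2 fold change of −2.90. It was −3.46 without head library 2.55 and −3.58 without tail library 0.35, and −1.96 with 10 added to both means.

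bruno was also higher in heads, and its libraries were even. It had 64.7, 74.5 and 65.3 normalized counts in head libraries 2.55, 2.35 and 2.08, and 27.8, 22.7 and 18.8 in tail libraries 0.72, 0.35 and 0.32. The lowest head library lay above the highest tail library. The means were 68.2 ± 5.50 in heads and 23.1 ± 4.53 in tails (SD, n = 3 each), a log2 fold change of −1.56. Its tail level rests on 34 reads, and the counting interval of its log2 ratio of summed reads, −1.48, ran from −2.03 to −0.98 (95%, exact binomial).

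The vasa-like helicase and Argonaute were abundant in heads and tails alike and differed less than 2-fold. For the vasa-like helicase the authors' means were 2158 normalized counts for heads and 3335 for tails, which is a log2 fold change of 0.63. For Argonaute they were 2332 for heads and 4264 for tails, which is a log2 fold change of 0.87. The group totals were 12.2 M normalized counts for heads and 16.4 M for tails, so scaling both groups to equal totals lowers every log2 fold change by 0.43. On that scale the vasa-like helicase had a log2 fold change of 0.20 and Argonaute of 0.44. Whether these differences exceed the spread between libraries cannot be seen from group means.

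Of the 6 genes, 2 were at least 2-fold higher in tails, 2 at least 2-fold higher in heads and 2 within 2-fold. Among the 8774 genes with a mean over both groups of at least 10, 13.1% were at least 2-fold higher in tails and 23.1% at least 2-fold higher in heads. These shares are background only, since the genes were chosen on this contrast.

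**Figure D1:**
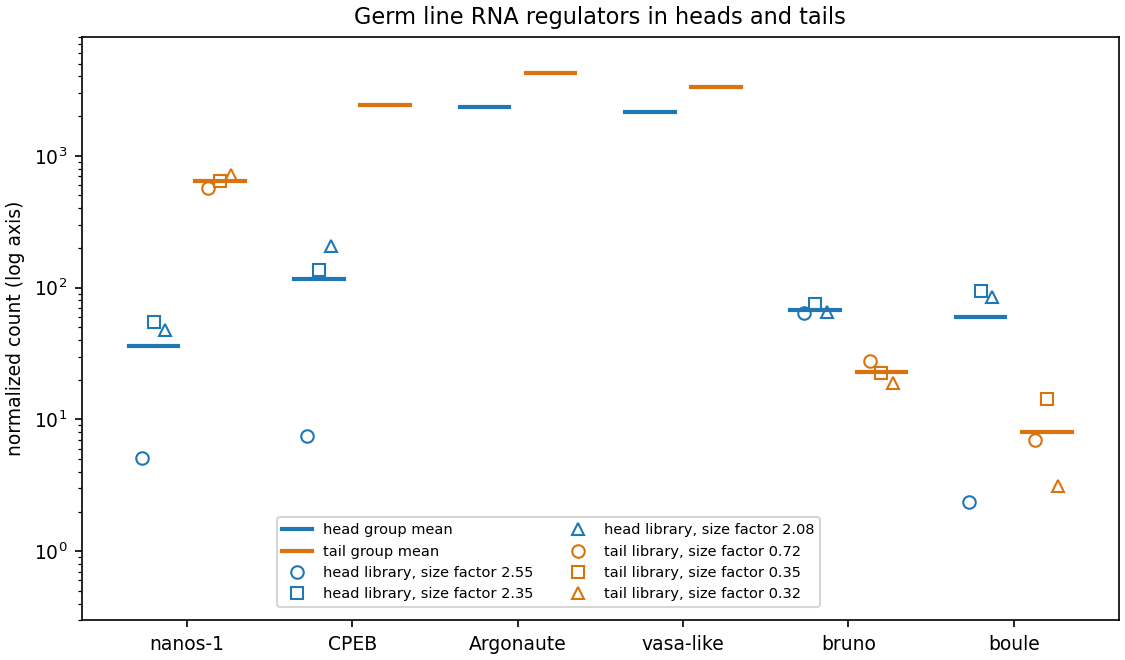
Normalized counts of the 6 regulators (log axis) in heads (blue) and tails (orange): lines are group means, symbols are single libraries, shown where their reads could be solved. Head library 2.55 (blue circles) lies at 5.10 for nanos-1, 7.45 for CPEB and 2.35 for boule, well below the other head libraries, and with the others at 64.7 for bruno.

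Unevenness among the head libraries was measured as the level in head library 2.55 over the mean of the other head libraries. The rule on the group means does not use this ratio, but the head mean is built from the same libraries. The ratio was not among the comparisons planned beforehand, so the ranks of the chosen genes are a description. Over the 2976 genes whose head mean was at least 10 and whose head reads were solved, the median ratio was 0.97, and the quartiles were 0.88 and 1.07. The ratio was 0.026 for boule, 0.044 for CPEB and 0.099 for nanos-1. That of bruno was 0.93. Only 10 of the 2976 genes (0.336%) had a lower ratio than boule, 17 (0.571%) a lower one than CPEB and 27 (0.907%) a lower one than nanos-1.

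The 16 vitellaria-specific genes with solved head reads had ratios from 0.0060 to 1.11, with a median of 0.25, and 7 of them were under 0.2. boule, CPEB and nanos-1 thus lay among the lower of them, and the low head library of these genes moved with many but not all vitelline transcripts. boule differed from the 16 vitellaria-specific genes in direction, since each of these had a higher mean in tails. Head and tail levels had entered the choice of boule and of these genes, so this contrast is a description only. The mean of boule was 8.09 in tails, beside 93.7 and 84.9 normalized counts in head libraries 2.35 and 2.08. Whether vitelline tissue in the head pieces accounts for the head levels of boule, CPEB and nanos-1 was not tested. In the narrower set of 12, the 8 with solved reads ranged from 0.0060 to 0.30.

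The other head libraries differed from each other as well. Head library 2.08 exceeded head library 2.35 for 12 of the 16 vitellaria-specific genes, with ratios from 0.74 to 3.90. CPEB was 1.52 times higher in head library 2.08, whereas nanos-1 had a ratio of 0.87 and boule of 0.91, beside a median of 0.97 over the 2976 genes.

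Of all genes compared, 45 (1.51%) had a ratio under 0.2, a limit set after the values were seen. Of these, 27 had a higher mean in tails, as nanos-1 and CPEB did, and 18 a higher mean in heads, as boule did. The genes named next were also picked after their values were seen. Among the head-higher ones were synaptonemal complex protein 2 (Smp_154830) and the HORMA domain containing protein Smp_169930, both parts of the chromosome axis that pairs homologues in meiosis. Smp_154830 had 6.27, 134 and 155 normalized counts in head libraries 2.55, 2.35 and 2.08 and a tail mean of 15.3. Smp_169930 had 3.92, 94.5 and 70.1 in the same libraries and a tail mean of 16.4. As for boule, head library 2.55 lay below the tail mean in both, and the other head libraries lay above it. A poly(rC) binding protein, Smp_145490, of another family of RNA-binding proteins, had 2.74, 92.8 and 161 in these head libraries and a tail mean of 2.34.

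**Figure D2:**
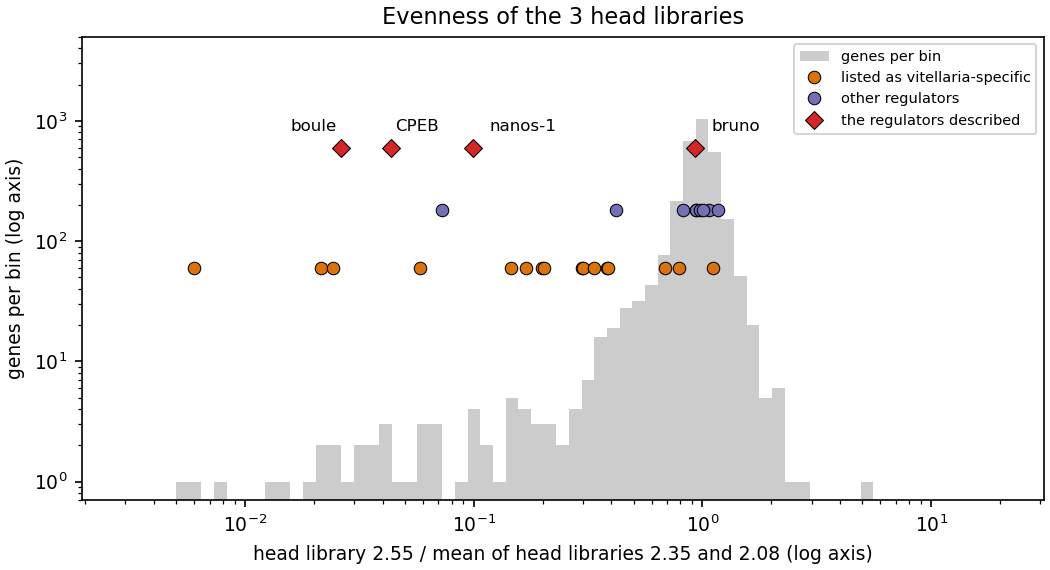
Ratio of head library 2.55 to the mean of head libraries 2.35 and 2.08 (log axis); grey bars count genes per bin (log axis) among 2976 genes, and the height of the coloured symbols has no meaning. boule (0.026), CPEB (0.044) and nanos-1 (0.099) lie among the lower of the 16 genes listed as vitellaria-specific (0.0060 to 1.11), and bruno (0.93) lies in the peak of all genes.

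The other nanos gene and the Pumilio genes had smaller differences between heads and tails than nanos-1. The other nanos gene in the table, Smp_051920, is the one annotated there as nanos 1. It had 216, 233 and 291 normalized counts in tail libraries 0.72, 0.35 and 0.32. Its mean was 246 in tails and 348.6 in heads, a log2 fold change of −0.50, on the other side of 0 from nanos-1. Of the Pumilio genes, Smp_155000 averaged 2656 for heads against 6292 for tails (authors' means), with a log2 fold change of 1.24. Smp_180910 averaged 1574 for heads against 3095 for tails (authors' means), with a log2 fold change of 0.98. A gene with a Pumilio domain annotated KIAA0020, Smp_098450, had a log2 fold change of 0.08. On the scale of equal totals the Pumilio values are 0.43 lower, which turns that of Smp_098450 below 0.

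The CPEB family spanned both directions. Besides Smp_137460, Smp_136410 averaged 453.9 for heads against 1132 for tails (authors' means), with a log2 fold change of 1.32. Smp_012950 had 96.8, 96.6 and 96.0 normalized counts in head libraries 2.55, 2.35 and 2.08 and 196, 190 and 100.2 in tail libraries 0.72, 0.35 and 0.32. Its heads were nearly equal and all tail libraries were higher, a log2 difference of 0.68 ± 0.27 (SE) on the log2(normalized count + 1) scale that did not pass the test (limma, adjusted p = 0.0556). It did pass with a pseudocount of 10 (limma, adjusted p = 0.0454) and without tail library 0.32 (limma, adjusted p = 0.00235). In every other alternative it did not pass (limma, adjusted p = 0.0645 to 0.153).

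Smp_070360 was the CPEB gene with the opposite pattern to Smp_137460. It had 2.35, 26.8 and 37.9 normalized counts in head libraries 2.55, 2.35 and 2.08, and 2.78, 0 and 3.13 in tail libraries 0.72, 0.35 and 0.32. Head library 2.55 lay within the range of the tail libraries, and the tail values rest on very few reads (2, 0 and 1). The log2 fold change of its means was −3.50. On the log2(normalized count + 1) scale it fell by 2.62 ± 0.99 (SE) from heads to tails (limma, adjusted p = 0.0485). The call was lost when any library other than head library 2.55 was left out (limma, adjusted p = 0.0712 to 0.165) and with no minimum of reads (limma, adjusted p = 0.0606). Without head library 2.55 its adjusted p from limma was 0.00892. Its ratio of head library 2.55 to the other heads was 0.073, and it was the only 1 of 9 further regulators with a head mean of at least 10, and head reads solved, whose ratio was under 0.2.

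Members of the bruno or CELF family also went both ways. Proteins of this family bind GU-rich elements in messenger RNA and act on splicing, translation and decay. Smp_041280, annotated as CUGBP Elav family, had a mean of 470.2 in heads, and 139, 56.7 and 72.0 normalized counts in tail libraries 0.72, 0.35 and 0.32. Its log2 fold change of −2.40 had the direction of bruno. Smp_131780, annotated as CUG BP and ETR3 factor, averaged 554.2 for heads against 1773 for tails (authors' means), with a log2 fold change of 1.68. No other gene of the table was annotated as boule.

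The 3 Argonaute genes all had higher means in tails, by different amounts. Smp_179320 averaged 890.6 for heads against 3999 for tails (authors' means), with a log2 fold change of 2.17. Smp_198380 averaged 1415 for heads against 1946 for tails (authors' means), with a log2 fold change of 0.46. Smp_102690 lay between them at 0.87, and on the scale of equal totals that of Smp_198380 was close to 0. The helicases nearest by name to the vasa-like gene had close values. They were the DEAD-box genes Smp_068440 and Smp_033710, annotated as relatives of DDX3, a helicase active in translation initiation. Smp_068440 averaged 3104 for heads against 4869 for tails (authors' means), with a log2 fold change of 0.65. Smp_033710 averaged 3435 for heads against 5216 for tails (authors' means), with a log2 fold change of 0.60. Related genes with near-identical stretches can share reads, and how such reads were counted is not known here.

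**Figure D3:**
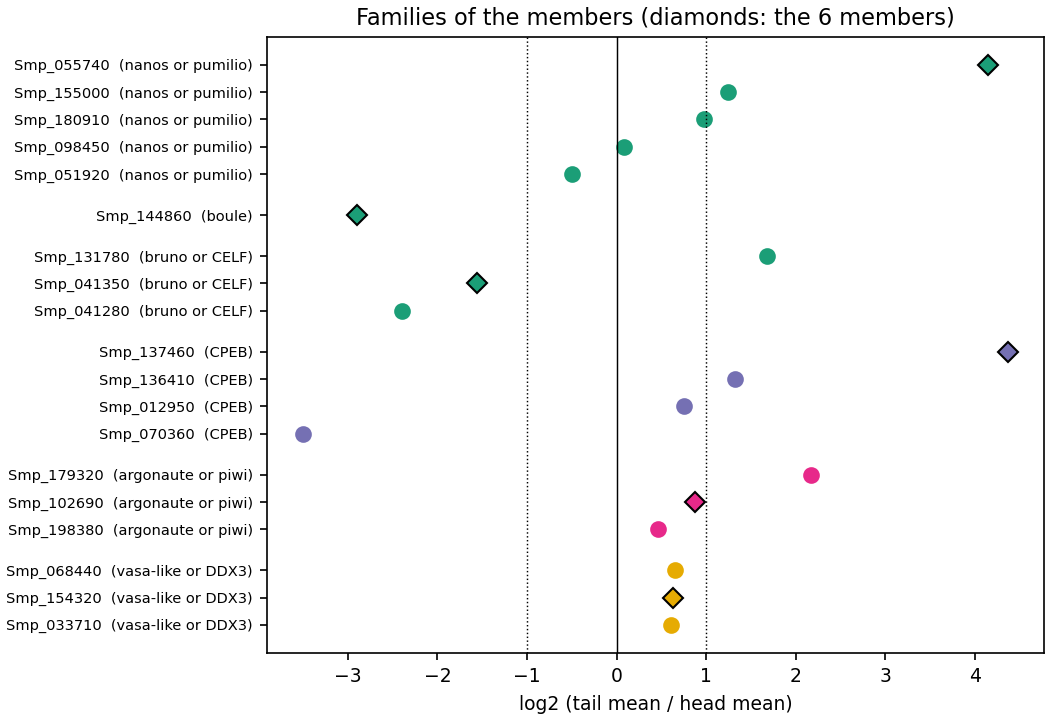
Log2 fold change of the group means, tail over head, for the 6 regulators (diamonds) and other genes annotated to their families (circles). Genes annotated as pumilio or with a Pumilio domain are grouped with the nanos genes. Dotted lines mark 2-fold. The CPEB genes run from −3.50 to 4.38, the bruno or CELF genes from −2.40 to 1.68, and the 3 vasa-like or DDX3 genes from 0.60 to 0.65.

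Other genes named for RNA regulation were taken from the annotation as a list of 59 genes in 4 roles, with the 6 genes above left out. Whether they act in the germ line was not tested. Of these, 57 had a mean over both groups of at least 10. At a 2-fold difference of the means, 11 were higher in tails (19.3%, beside 13.1% of all genes) and 6 were higher in heads (10.5%, beside 23.1%). The median log2 fold change was 0.23, beside 0.0036 over all 8774 genes of that level. With equal group totals, which lowers every gene by the same 0.43, 6 of the 57 were higher in tails (10.5%, beside 7.28% of all genes) and 10 in heads (17.5%, beside 31.6%).

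By role, 3 of 20 genes filed as RNA-binding repressors were at least 2-fold higher in tails and 3 in heads (15% each). Over all genes the shares were 13.1% in tails and 23.1% in heads. The repressor role also holds Nova, mago nashi and RNA binding protein 8A genes. Differences between roles were not tested. Of the 19 genes of the poly(A) tail with a mean of at least 10, 4 were higher in tails (21.1%) and 2 in heads (10.5%). Of the 12 helicase and granule genes, 3 were higher in tails (25%) and 1 in heads (8.33%). Of the 6 other small RNA genes, 1 was higher in tails (16.7%), the Argonaute Smp_179320, and the remaining 5 were within 2-fold. These included dicer 1 (Smp_169750), an enzyme that cuts double-stranded RNA into small RNAs, with a log2 fold change of −0.05.

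Outside the families of the 6 genes, the regulators with the largest differences in tails were 3 staphylococcal nuclease domain genes and a bicaudal C gene. In other animals the protein with staphylococcal nuclease domains is a subunit of the RNA-induced silencing complex, and Bicaudal C is an RNA-binding protein that represses translation in the *Drosophila* ovary. Smp_118190 had 22.7, 27.7 and 27.8 normalized counts in head libraries 2.55, 2.35 and 2.08 and 139, 179 and 210 in tail libraries 0.72, 0.35 and 0.32. All tail libraries were above all heads, and the heads were even. Its log2 difference was 2.69 ± 0.23 (SE; limma, adjusted p = 0.000115). That of Smp_166110, which is also among the markers of vitellaria and ovary, was 2.45 ± 0.18 (SE; limma, adjusted p = 7.2e-05). For Smp_081570 the authors' means were 2117 for heads and 12186 for tails, which is a log2 fold change of 2.53. Bicaudal C 1 (Smp_130450) had 12.9, 16.2 and 11.5 across heads, and across tails 80.7, 45.4 and 78.2, a log2 difference of 2.22 ± 0.33 (SE; limma, adjusted p = 0.000985).

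Outside these same families, the regulators with the largest differences in heads were the helicase YTHDC2, a tob protein, a musashi protein and lin 28. YTHDC2, needed for meiotic entry in mouse germ cells, is encoded here by Smp_172150. It had 51.8, 160.5 and 86.9 normalized counts in head libraries 2.55, 2.35 and 2.08 and 22.2, 19.9 and 25.04 in tail libraries 0.72, 0.35 and 0.32. Head library 2.55 was again the lowest head, with a ratio of 0.42, but lay above all tails. Its log2 difference was −1.96 ± 0.40 (SE; limma, adjusted p = 0.00411). The tob gene (Smp_076030), whose relatives recruit deadenylases, averaged 559.6 for heads against 137 for tails (authors' means), with a log2 fold change of −2.03. Musashi (Smp_131640), a translational repressor of stem cells in other animals, had 219, 249.9 and 217 across heads, and across tails 57.0, 48.2 and 72.0, a log2 difference of −1.95 ± 0.19 (SE; limma, adjusted p = 0.000207). For lin 28 (Smp_158160), which blocks let-7 processing in mammals, the log2 difference was −1.27 ± 0.36 (SE; limma, adjusted p = 0.0168). That call was lost when any head library was left out (limma, adjusted p = 0.055 to 0.0635).

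The test could be run on 10 of the 59 regulators, those with reads solved in both groups. At an adjusted p from limma under 0.05, 3 were higher in tails and 4 in heads. Over all 3508 genes tested, 20.6% were higher in tails and 42.6% higher in heads. These 3508 genes are of low level by construction and do not stand for the whole table.

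**Figure D4:**
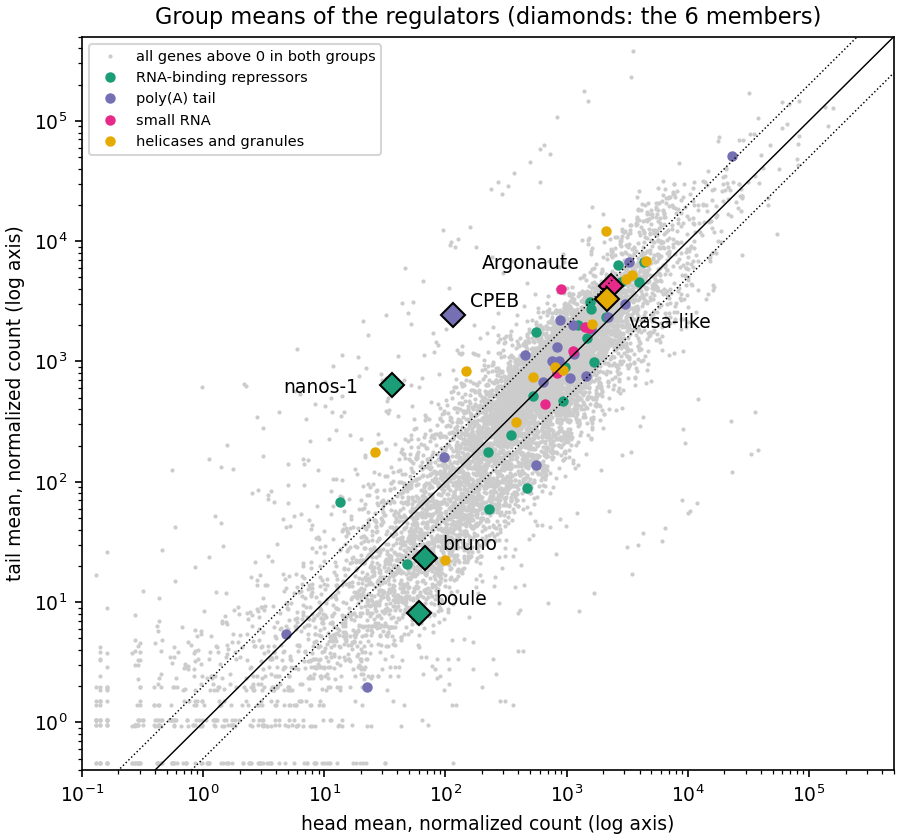
Head mean against tail mean of every gene above 0 in both groups (grey; log axes; solid line, equal means; dotted lines, 2-fold), with the regulators coloured by role and the 6 genes as diamonds. nanos-1 (36.0, 639.7) and CPEB (116, 2418) lie far above the line of equal means, boule (60.3, 8.09) and bruno (68.2, 23.1) below it, and Argonaute and the vasa-like helicase within 2-fold of it.

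The 2 genes most like each of the 6 were found by the distance between their points in log2(mean + 1) of heads and tails, over these 2 groups only. For nanos-1 they were an inositol trisphosphate receptor, Smp_151850 (distance 0.23), and the G2/mitotic-specific cyclin B3 gene Smp_130970 (distance 0.30). Smp_151850 had 4.70, 35.8 and 57.1 normalized counts in head libraries 2.55, 2.35 and 2.08 and a tail mean of 723.6. Smp_130970 had 1.57, 40.4 and 47.5 in these libraries and a tail mean of 704.7. Both shared with nanos-1 the low level in head library 2.55, which the distance did not use, with ratios of 0.10 and 0.036.

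For boule the nearest genes did not share it. They were Smp_188010, annotated as phosphatase and actin regulator 3 (distance 0.099), and the hypothetical protein Smp_201950 (distance 0.11). Their ratios of head library 2.55 to the other heads were 1.18 for Smp_188010 and higher still for Smp_201950, beside 0.026 for boule. For CPEB they were Smp_074710, annotated as Def8 (distance 0.20), and the hypothetical protein Smp_140720 (distance 0.41). Their ratios were 0.68 and 1.11, beside 0.044 for CPEB, and both are among the genes listed as vitellaria-specific.

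The remaining genes had near neighbours whose levels hardly differed from theirs. For bruno these were a Bardet Biedl syndrome 7 gene, Smp_138120 (distance 0.045), and the coiled coil gene Smp_156370 (distance 0.048), with even heads (ratios of 1.14 and 0.87). For the vasa-like helicase they were Smp_099150 (distance 0.020) and Smp_007380 (distance 0.036). For Argonaute they were Smp_122830, with an Ataxin 2 domain (distance 0.0065), and the transporter Smp_129820 (distance 0.022). No single libraries could be solved for the last 4.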

How the data were processed

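Heads and tails were sequenced with 3 libraries each. Per the submitters' processing notes and the study's methods, the authors used STAR 2.5.0b for mapping against a WormBase ParaSite reference and DESeq 1.22 for size factors. The sources used here name no counting program. The deposited signal values are means of these normalized counts per group. The table's own fold changes and p-values were not used, and 0 columns hold single libraries.

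Log2 fold changes were computed from the group means. Whole reads of single libraries were solved as the 1 combination that, with size factors found from the smallest repeated means, gives the deposited mean to its last digit, of 10, within 1.1 times the rounding error. limma 3.58.1 with a mean-variance trend was run on log2(normalized count + 1) for genes solved in both groups with at least 10 reads over 6 libraries, with Benjamini-Hochberg adjustment over all of them. Both steps were tested on simulated data. Standard errors and p-values measure the spread between 3 extractions per group; counting intervals cover counting error only.

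The 6 genes and the regulator list were chosen with earlier results of these data known. The list was drawn by keywords from annotation. It also holds genes annotated only as partners, namely partner drosha (Smp_087220) and partner dicer (Smp_023670). Named were the 6 genes and others of their families, with Pumilio grouped with nanos. Also named were the 4 further regulators with the largest difference in each direction (mean of at least 10). The 2 nearest genes of each of the 6 were named too. The vitellaria list came from the study's table of cloned genes. Alternatives covered pseudocount, scaling, level filter, fold and leaving out each library.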

Additional observations from a re-analysis of the deposited data

How the results depend on the processing

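No paired analysis was possible because the columns carry no replicate numbers. With each solved library left out in turn, the log2 fold change ran from 3.64 to 4.59 for nanos-1, from −3.58 to −2.43 for boule, from −1.72 to −1.43 for bruno and from 3.82 to 5.08 for CPEB, where only head libraries could be left out. No direction turned under any alternative run on the 6 genes. With equal group totals it was −1.99 for bruno, 3.95 for CPEB, 0.20 for the vasa-like helicase and 0.44 for Argonaute. With the median of genes with a mean of at least 100 set to 0 it was 4.24, 0.49 and 0.73 for CPEB, the vasa-like helicase and Argonaute, and with 10 added to both means it was −1.96 for boule, −1.24 for bruno and 3.82 for nanos-1. Of 57 other regulators, 0 were 8-fold higher in tails (1.58% of all genes) and 1 in heads (1.75%, beside 2.04% of all genes). With equal totals, a uniform shift, 6 were 2-fold higher in tails and 10 in heads (10.5% and 17.5%, beside 7.28% and 31.6% of all genes). With a minimum mean of 100, 3 of 53 were 2-fold higher in heads (5.66%, beside 16.7%). The limma counts among the 10 regulators tested ran from 3 to 4 in tails and from 2 to 4 in heads with a library left out. Over all 3508 genes tested they then ran from 574 to 742 in tails and from 1158 to 1659 in heads. With equal library totals of the solved genes, 3 regulators were called in tails and 5 in heads, beside 644 and 1642 of the 3508. Depth limits the tail values of boule and Smp_070360, which rest on 11 and 3 reads, and abundant genes have no measured spread.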
